A study of Mus musculus with 4 samples.

Results

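The mouse Hox genes are the 39 protein-coding genes of the Hoxa, Hoxb, Hoxc and Hoxd clusters. They were picked by symbol from the GENCODE vM21 annotation, which has 21938 protein-coding genes on the numbered and sex chromosomes, and comprise 11 Hoxa, 10 Hoxb, 9 Hoxc and 9 Hoxd genes. For each gene, peaks of methylated Pontin were looked up whose centre lay within 2.5 kb of the transcription start site (TSS) of any of its transcripts, and all peaks inside the 4 clusters were collected. All positions are those of GRCm38.

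The ChIP-seq series was made from wild-type mouse embryonic fibroblasts (MEFs), with an antibody that recognizes Pontin methylated on arginine, and comprises ChIP and input chromatin from normal media and from glucose starvation, 1 library each. The peaks are those of the ChIP library under glucose starvation, called by the authors with HOMER against input, and nothing from the ChIP in normal media enters the results. Which of the inputs served as control is not clear from the sources used here, so folds over input and input levels refer to an input that is not named. A single library has no replicate, so the variation between cultures is unknown, and conditions were not compared. Pontin is an AAA+ ATPase of the Tip60 and INO80 chromatin complexes, and the question the study asked of this library was where its methylated form sits on chromatin in starved cells.

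Hox genes encode homeodomain transcription factors that give cells their position along the head-to-tail axis and the limb. In each cluster the genes stand in the order in which they are expressed along the body, from group 1 at the 3' end to group 13 at the 5' end, and genes of the same number in different clusters are paralogues. Polycomb proteins hold the clusters silent where they are not used, Trithorax proteins keep them active where they are, and fibroblasts keep the Hox pattern of the place in the body from which they came.

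A methylated Pontin peak lay within 2.5 kb of a TSS at 4 of the 39 Hox genes (10.3%), which were Hoxb3, Hoxb9, Hoxc4 and Hoxd8. The other 35 had none. Among all protein-coding genes, 3747 of 21938 (17.1%) had a peak by the same rule. If each Hox gene had the share of other genes of like GC content at the gene start, the count would be 7.86. Peaks are absent from the list where the signal missed the authors' limits, so a gene without a peak is not shown to be free of methylated Pontin. Genes of 1 library are not replicates, and these counts carry no test.

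The 4 clusters together span 491.8 kb and hold 5 peaks. The peaks carried from 9.39 to 22.4 tags per 10000000 tags, the unit in which the authors give the signal of a peak. This is a tag count of paired-end reads scaled to a common depth, and 22.4 corresponds to 46.5 tags of the 20765512 in the library. A count of tags in a peak is thus not always a whole number. The intervals given below are 95% Poisson intervals of such counts and cover counting error only. Their formula is exact for whole counts, so they are approximate here.

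The highest Hox peak was that of Hoxb9, a gene of the trunk that takes part in the patterning of the ribs. The peak, at chr11:96270709-96271189, lay between genes with its centre 508 bp upstream of the TSS of Hoxb9. Its signal was 22.4 tags per 10000000 (16.4 to 29.8), above that of 93.4% of the 3213 peaks within 2.5 kb of a protein-coding TSS, called proximal peaks from here on. In the authors' table it was 7.24-fold over input (p = 5.02e-15) and 5.68-fold over the surrounding 10 kb (p = 6.14e-20), where p is the authors' Poisson p-value. The central 200 bases of the plus strand, chr11:96270849-96271048, are shown because they carry the only match to the homeodomain core TAATTA in a Hox peak at a gene start, marked in capitals.

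Hoxb9: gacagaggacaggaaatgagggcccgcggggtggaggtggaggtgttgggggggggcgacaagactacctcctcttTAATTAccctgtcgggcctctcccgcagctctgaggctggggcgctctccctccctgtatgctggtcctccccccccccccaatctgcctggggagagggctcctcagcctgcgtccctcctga

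The match stands 21 bp before the centre of the peak, and the stretch has a GC content of 66.5%.

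Hoxb3, a gene of the hindbrain and the pharyngeal arches, was the Hox gene with 2 peaks within reach of its TSSs. The first, at chr11:96323169-96323649, had its centre 83 bp downstream of the most upstream TSS of the gene, in an untranslated exon. Its signal was 16.4 tags per 10000000 (11.4 to 22.9), and in the authors' table it was 4.71-fold over input (p = 1.42e-08) and 4.03-fold over its surroundings, just past the 4-fold limit. Only 1.4% of proximal peaks had a lower fold over the surroundings. The 200 bases shown, chr11:96323446-96323645, are the intronic part of the peak downstream of that exon on the plus strand, with capitals on matches to TTTATNG, the letters bound by posterior Hox proteins.

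Hoxb3, first peak: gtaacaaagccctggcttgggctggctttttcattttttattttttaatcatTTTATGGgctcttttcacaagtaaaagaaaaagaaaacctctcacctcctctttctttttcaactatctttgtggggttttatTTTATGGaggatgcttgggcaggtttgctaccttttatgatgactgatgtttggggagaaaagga

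This stretch holds no CpG and has a GC content of 37.0%, against 66.5% in the stretch at Hoxb9. A further match to TTTATNG in the same peak, on the minus strand 63 bp before the centre, lies outside the stretch.

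The second Hoxb3 peak, at chr11:96342086-96342566, stood 18.9 kb downstream of the first. It lay in an intron of the longer Hoxb3 transcripts, 1443 bp upstream of the next Hoxb3 TSS and 218 bp upstream of the start of the antisense RNA Gm11536. The signal was 17.8 tags per 10000000 (12.5 to 24.5). It was 46.1-fold over input (p = 2.8e-30) and 4.26-fold over its surroundings in the authors' table, and 98.0% of proximal peaks had a lower fold over input. The input level behind this fold, which is the signal divided by the fold, was 0.386 per 10000000, close to 0.367, the lowest in the list. The central 200 bases of the plus strand, chr11:96342226-96342425, are shown to compare with the first peak, and they match none of the motifs searched.

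Hoxb3, second peak: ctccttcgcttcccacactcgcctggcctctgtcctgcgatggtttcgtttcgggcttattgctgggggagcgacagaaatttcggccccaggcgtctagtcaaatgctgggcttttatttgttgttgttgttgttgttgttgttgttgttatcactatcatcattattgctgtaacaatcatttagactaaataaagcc

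The stretch has 8 CpG and a GC content of 45.5%, with a run of repeated TTG near its centre. A match to TAATTA in this peak lies 186 bp from the centre.

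Hoxc4, a gene of the neck and upper trunk, had a peak at chr15:103034238-103034718. Its centre lay 83 bp downstream of an internal TSS of the gene, 15.5 kb from the gene start, in untranslated exon sequence of both annotated transcripts. The signal was 19.5 tags per 10000000 (14 to 26.5), and the peak was 4.59-fold over input (p = 1.08e-09) and 4.7-fold over its surroundings in the authors' table. Only the 25 bases around its match to TTTATNG are shown, chr15:103034658-103034682, with the match in capitals.

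Hoxc4: taggagggcTTTATGGagcagaaaa

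Hoxd8, a gene of the trunk in the middle of the Hoxd cluster, had the weakest Hox peak. It lay at chr2:74704794-74705274, with its centre 118 bp upstream of one Hoxd8 TSS and 129 bp downstream of another. The signal was 9.39 tags per 10000000 (5.7 to 14.6), or 19.5 tags in the library, and only 1.34% of proximal peaks had fewer. It was 4.15-fold over input (p = 7.14e-05) and 4.17-fold over its surroundings (p = 5.28e-07) in the authors' table. Its tag count, both folds and its p over input were near the authors' limits, while its p over the surroundings was not. This was the most GC-rich of the 5, with a GC content of 74.6% and 64 CpG in 481 bases. The 111 bases upstream of the latter TSS, chr2:74704794-74704904, are shown for their density of CpG, which are 18 in number, and match none of the motifs.

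Hoxd8: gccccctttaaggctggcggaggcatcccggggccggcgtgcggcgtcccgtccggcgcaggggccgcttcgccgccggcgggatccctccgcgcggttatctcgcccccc

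The interval of Hoxd8, the weakest Hox peak, ended at 14.6 tags per 10000000 and that of Hoxb9, the highest, began at 16.4. These intervals do not overlap, but the peaks were picked as the extremes of the 5 Hox peaks. Their difference was not tested. All other pairs of Hox peaks had intervals that overlap, and their order within the range of 16.4 to 22.4 is not settled at this depth. The median signal of the 5 was 17.8 tags per 10000000, against 14.9 (interquartile range 12.5 to 17.8) over all proximal peaks. Their median fold over input was 4.71, against 9.1, and their median fold over the surroundings was 4.26, against 5.01. The Hox peaks thus had tag counts from near the lowest of proximal peaks to their upper tail, while 4 of the 5 had folds over input under the median.

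**Figure D1:**
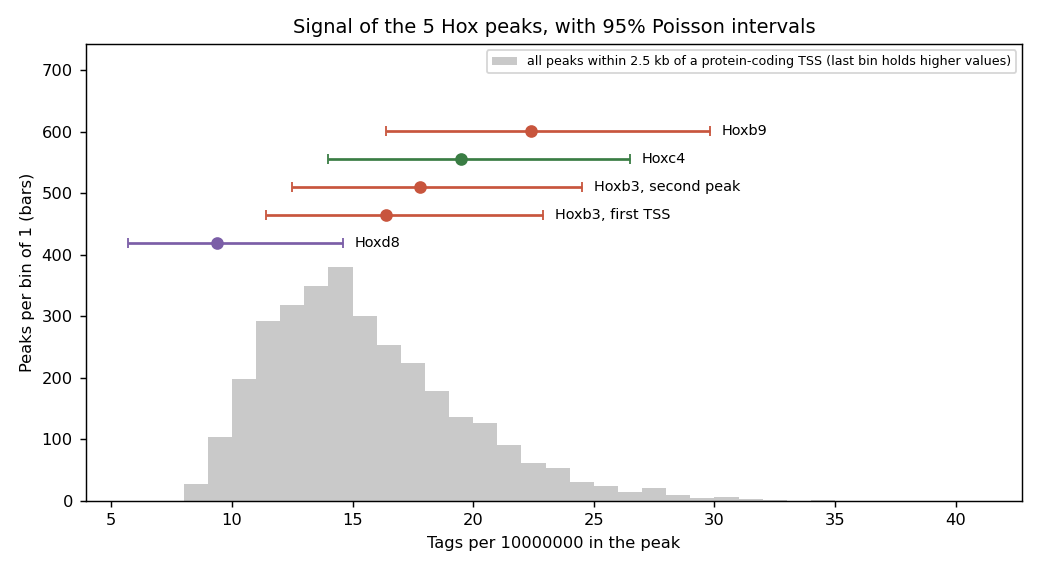
Signal of the 5 Hox peaks in tags per 10000000 (points at arbitrary heights, with 95% Poisson intervals). Bars below give the distribution of all 3213 proximal peaks (peaks per bin of 1). Hoxb9 stands at 22.4 in the upper tail, Hoxd8 at 9.39 in the lower tail, and the other 3 between 16.4 and 19.5.

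Dividing the signal by the authors' folds gives the level around each peak and in the input. At the 3 Hoxb peaks and at Hoxc4 the level around the peak was 3.94 to 4.18 per 10000000, against a median of 2.89 over proximal peaks, and was above that of 88.2% to 92.4% of them. At Hoxd8 it was 2.25, above 17.5%. Since the authors required 4-fold over the surroundings, a peak at the level found around Hoxb9 needed 15.8 tags per 10000000 and one at the level around the second Hoxb3 peak 16.7, and 58.7% and 67.2% of proximal peaks had fewer tags than that. At Hoxd8 the same limit was 9.01, and 0.871% of proximal peaks fell under it. The input level was 4.25 at Hoxc4, above 98.1% of proximal peaks, 3.48 at the first Hoxb3 peak and 3.09 at Hoxb9, against a median of 1.55. The level around Hox genes without a peak cannot be read from the list, so the part of the local limit in the count of Hox genes was not tested.

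When only peaks at least 8-fold over input were kept, Hoxb3 alone of the Hox genes had a peak, its second one, against 9.93% of all protein-coding genes. In the upper part of the peaks by the authors' score, Hoxb3, Hoxb9 and Hoxc4 had one, or 3 of 39 genes, against 10.0% of all protein-coding genes.

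The clusters differed in their number of peaks. The Hoxb cluster, at chr11:96194316-96368256, held 3 of the 5 peaks and 2 of the 4 genes with a peak, at 1.72 peaks per 100 kb. The Hoxc cluster, at chr15:102921103-103036852, held 1 peak, at 0.864 per 100 kb, and the Hoxd cluster, at chr2:74668310-74765142, held 1, at 1.03 per 100 kb. The Hoxa cluster, at chr6:52155590-52260880 and 105.3 kb long, held none. From the GC content of their gene starts, 2.19 Hoxa, 1.66 Hoxb, 1.91 Hoxc and 2.1 Hoxd genes would have had a peak. The counts found were 0, 2, 1 and 1, in the same order. The share of other protein-coding genes with a peak was close on the 4 chromosomes concerned. It was 16.5% on chromosome 6, 19.2% on chromosome 11, 19.1% on chromosome 15 and 18.9% on chromosome 2. The median signal of proximal peaks, in the authors' unit, was less even. It was 14.4 on chromosome 6, 13.7 on chromosome 11, 15.4 on chromosome 2 and 19.4 on chromosome 15. The signal of Hoxc4, 19.5, was thus near the median of its chromosome. The Hoxb peaks, from 16.4 to 22.4, lay above that of theirs, and Hoxd8, with 9.39, lay below. The reason for the higher median on chromosome 15 was not tested.

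**Figure D2:**
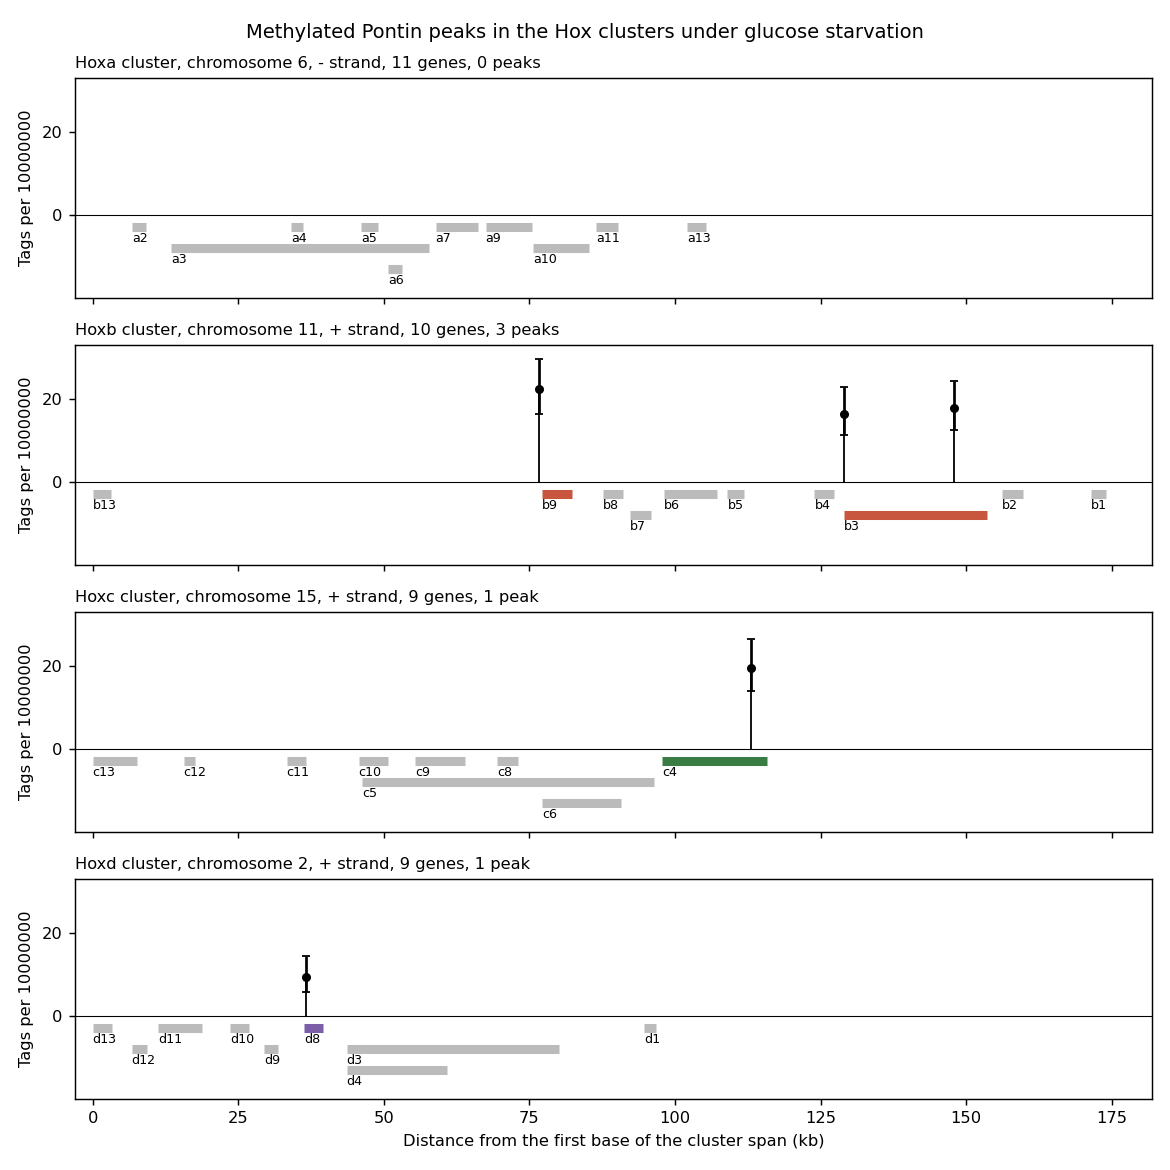
Map of each Hox cluster in kb from the first base of its span. Genes reported singly are bars, coloured where a TSS has a peak within 2.5 kb, grey otherwise, and labelled by cluster letter and number. Peaks are points in tags per 10000000 with 95% Poisson intervals. Hoxb holds 3 peaks, Hoxc and Hoxd hold 1 each, and the Hoxa map has no point.

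The 11 Hoxa genes were the farthest from any peak. Their median distance was 332 kb, and Hoxa13 was 379 kb from the nearest peak. The stretch between the peaks on either side of the cluster was 763 kb long and held 15 protein-coding gene starts, which were those of the 11 Hoxa genes and of Skap2, 5730596B20Rik, Gm28308 and Evx1. Long stretches without a peak were common in this library, since 812 of 4291 gaps between neighbouring peaks (18.9%) were at least as long and the median gap was 187 kb. Gaps with at least 15 protein-coding gene starts numbered 241. In the Hoxa gap 14 of the starts had a GC content of at least 50%, and 117 gaps held at least as many of that kind.

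Other Hox genes had peaks at closer range without meeting the rule. None had its nearest peak between 2.5 and 5 kb away, so a limit of 5 kb gave the same 4 genes. Hoxb4, a regulator of blood stem cells, was 5.14 kb from the first Hoxb3 peak. Hoxd3 and Hoxd4, which share a start region, were both 6.89 kb from the Hoxd8 peak, and Hoxd9 was 7.31 kb from it on the other side. Hoxb2 was 8.2 kb from the second Hoxb3 peak. From there the distances rose to 76.6 kb at Hoxb13, 57.9 kb at Hoxd1 and 113 kb at Hoxc13, the genes at the ends of their clusters. The median distance was 13.3 kb in Hoxb, 13.1 kb in Hoxd and 57.4 kb in Hoxc. Over all 39 Hox genes it was 36.7 kb, against 87.9 kb for other protein-coding genes, and this distance also falls where genes stand close together, as they do in the clusters.

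**Figure D3:**
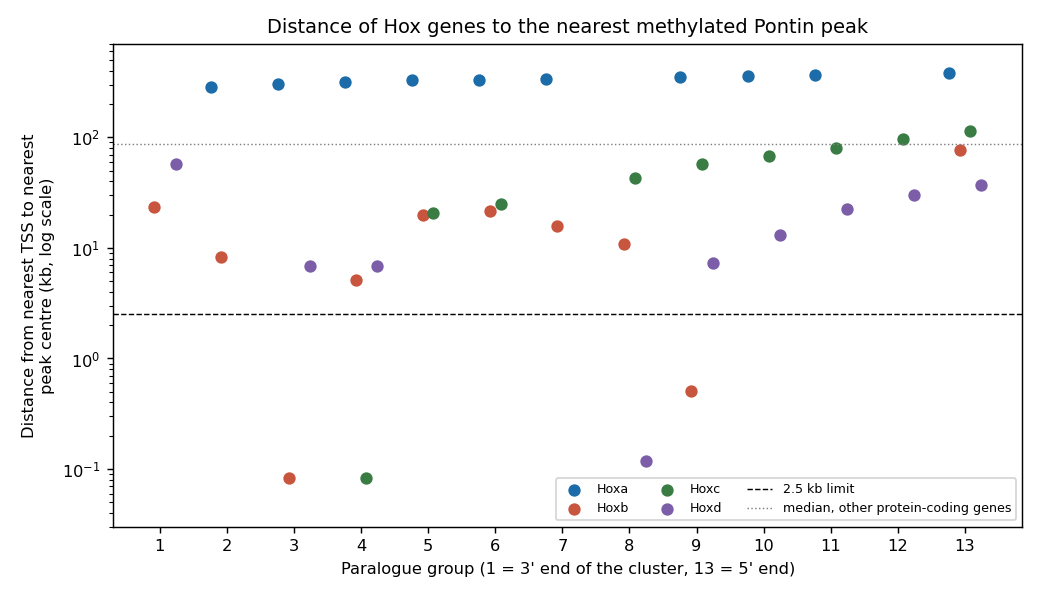
Distance in kb (log axis) from the nearest TSS of the Hox genes reported singly to the centre of the nearest peak, by paralogue group and cluster, with the 2.5 kb limit (dashed) and the median of other protein-coding genes (dotted, 87.9 kb). The 4 genes with a peak lie under the dashed line in groups 3, 4, 8 and 9, and the Hoxa genes plotted lie above 280 kb.

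By position, 2 of 12 genes in groups 1 to 4 had a peak (16.7%), 1 of 11 in groups 5 to 8 (9.09%) and 1 of 16 in groups 9 to 13 (6.25%). From GC content the counts would be 2.2, 2.14 and 3.52. With 1 or 2 genes a group, these shares rest on few genes and were not tested against each other. The genes with a peak were of groups 3, 4, 8 and 9, so none had a paralogue with a peak. With 4 such genes among 39 this was not tested, and it is not read as a difference between paralogues. Hoxa3, Hoxb3 and Hoxd3 form group 3, for example, and of these Hoxb3 alone had one. Groups 10 to 13, whose genes pattern the limbs, the sacral region and the genital tubercle, had none. They are part of groups 9 to 13, where 1 of 16 genes had a peak against 3.52 from GC content. They were not tested apart. The nearest peak was 13.1 kb away at Hoxd10, 22.7 kb at Hoxd11, 30.0 kb at Hoxd12 and 36.7 kb at Hoxd13, and 67.7 kb to 113 kb away at Hoxc10 to Hoxc13.

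Methylated Pontin peaks in this library were more frequent at gene starts of higher GC content, up to 65%. Of other protein-coding genes, 9.89% had a peak where the 1 kb centred on the gene start had a GC content of 45 to 50%, 17.8% at 50 to 55%, 23.7% at 55 to 60% and 25.7% at 60 to 65%. Above that the share rose no further, with 25% at 65 to 70%, 20.6% at 70 to 75% and 22.5% at 75 to 80%. The Hox genes had a median GC content of 57.5% there, between that of other genes with a peak (58.5%) and of those without (53.7%). Within the Hox genes the order was not kept. The 4 with a peak had a median of 55.5% and the 35 without had 57.5%. Hoxb3 had the lowest GC content of all Hox genes, 43.9%, and Hoxc4 had 49%, though its peak lies at another TSS. Hoxd8 had 62.1% and Hoxb9 67.0%. The 21 Hox genes with a GC content of 50 to 60% had no peak, where the shares of other genes would give 4.57, the 7 under 50% had 2, where they would give 0.637, and the 11 at 60% and over had 2, where they would give 2.65. Hoxa13 with 73.9%, Hoxa4 with 73.8% and Hoxd13 with 72.4% were the most GC-rich and had none. Hox gene starts had a median of 5.2 CpG per 100 bases, against 6.4 at other genes with a peak and 3.1 at those without.

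**Figure D4:**
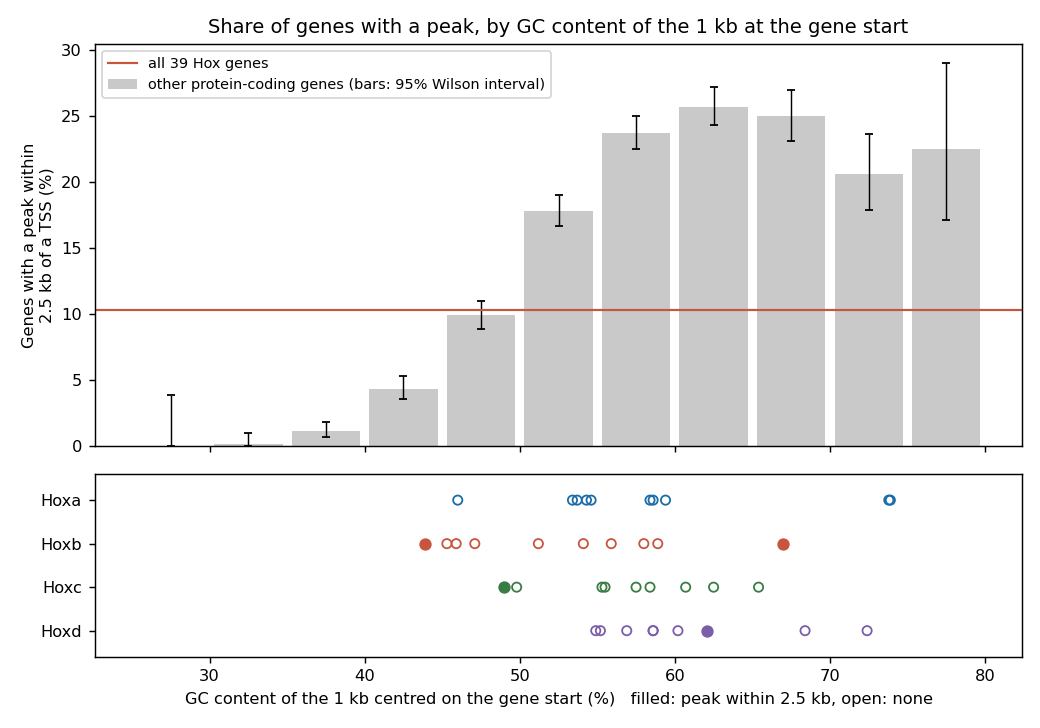
Above, the share of other protein-coding genes with a proximal peak (bars, with 95% Wilson intervals for counting error) by GC content of the 1 kb centred on the gene start, and the share over all 39 Hox genes (line, 10.3%). Below, the GC content at the start of the Hox genes reported singly, by cluster, filled where the gene has a peak. The filled points lie at 43.9%, 49%, 62.1% and 67.0%, and none lies in the crowded range of 50 to 60%.

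Counted by length, the Hox spans held 1.02 peaks per 100 kb and the genome 0.163. The spans are also crowded with genes, at 7.93 Hox genes per 100 kb. In the 788 windows of 100 kb with at least 5 protein-coding gene starts there were 0.891 peaks on average, and 360 of these windows (45.7%) held none. Of these windows, 5 overlap the Hox spans. The Hox spans hold 42 protein-coding gene starts, 3 of them not of Hox genes. Per gene start, the Hox spans had 0.119 peaks and these windows 0.142. The flanks of the 4 clusters, of the same length on each side, held 4 peaks, or 0.407 peaks per 100 kb. They held 11 protein-coding gene starts, so per gene start they had more peaks than the Hox spans, with 5 peaks and 42 starts. These counts are small and were not tested. Of the peaks in the flanks, 3 lay before the Hoxb cluster and 1 after the Hoxd cluster.

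The closest protein-coding neighbours outside the clusters were looked up by the same rule. Of the 8 closest, 1 on either side of each cluster, 2 had a peak, against 1.6 from GC content, and of the 24 within 3 places 7 had one (29.2%), against 5.16 from GC content and 17.1% of all protein-coding genes. Calcoco1, which encodes a coiled-coil coactivator and lies next to the Hoxc cluster, had a peak 0.644 kb from its TSS, and Mtx2, a subunit of the mitochondrial import machinery next to the Hoxd cluster, had one at 0.208 kb. Evx1 and Evx2, the homeobox genes that follow Hoxa13 and Hoxd13, had none, with the nearest peak 326 kb and 45.5 kb away. Skap2, beyond the 3' end of the Hoxa cluster, had its nearest peak at 3.91 kb. Hibadh, an enzyme of valine breakdown, lay beyond Evx1 and had a peak at 0.414 kb, which is the peak that ends the stretch around Hoxa.

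Of the noncoding genes in the clusters, Gm11536 in Hoxb3 was the closest to a peak. Among microRNA genes, Gm44463 was 3.89 kb from the Hoxd8 peak, Mir196a-1 5.79 kb from the Hoxb9 peak and Mir10a 6.24 kb from the first Hoxb3 peak. The microRNAs of Mir196a-1 and Mir10a target Hox transcripts. Their relatives were farther away, with Mir10b at 21.0 kb, Mir196a-2 at 61.1 kb and Mir196b in the Hoxa cluster at 354 kb. The long noncoding RNAs Hotair in Hoxc and Hotairm1 in Hoxa were 86.7 kb and 280 kb from a peak.

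The 481 bases of each Hox peak were searched on both strands for 8 motifs, and a match is a description of the letters and not a bound site. The homeodomain core TAATTA was in 2 of the 5 Hox peaks, those of Hoxb9 and the second of Hoxb3, and in 6.54% of all 4311 peaks. TTTATNG was in 3, the first of Hoxb3 with 3 matches and those of Hoxb9 and Hoxc4 with 1 each, and in 15.4% of all peaks. TGATNNAT, the letters of a joint Pbx and Hox site, was in the first Hoxb3 peak and in 10.9% of all peaks. GCCATNTT for YY1 (11.7% of all peaks), GTAAACA for FOXO3a (5.08%), GCGGGAA for E2F1 (9.26%), TCACGTG for TFEB (5.73%) and TGACGTC for CREB1 (3.71%) were in none of the 5. TAATTA and TTTATNG are rich in A and T, and the Hox peaks that carry them ranged in GC content from 41.2% to 61.3%.

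The genes that act with or on Hox genes were looked up in the same way. Of 9 genes of the Hox cofactors, the TALE homeodomain proteins that bind DNA together with Hox proteins, 3 had a peak, against 2.08 from GC content. These were Pbx3 (15.9 tags per 10000000), Pknox1 (15.4) and Meis3 (11.1). Of 27 Polycomb genes, 9 had a peak (33.3%), against 6.05 from GC content. They included Jarid2, a cofactor of the PRC2 complex, with 21.2 tags per 10000000 (15.4 to 28.5), Phc3 with 19.5, Ezh2, the methyltransferase of histone H3 lysine 27, with 17.8, and Pcgf1 with 15.9. Of 16 Trithorax genes, 7 had a peak (43.8%), against 3.26. The highest of these were Kmt2d, a methyltransferase of histone H3 lysine 4, with 28.9 tags per 10000000 (22.1 to 37.2), its partners Ash2l with 22.6 and Dpy30 with 18.8, and Ash1l with 15.9. Kmt2a, which maintains Hox gene expression, had 14.9. Kmt2d lies on chromosome 15, where the median signal of proximal peaks was 19.4.

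Other homeobox genes had a lower share than the Hox genes. Of 88 in the list, 4 had a peak (4.55%), against 19.2 from GC content and against 10.3% of the Hox genes. They included Lhx9 (21.7 tags per 10000000), Six4 (15.2) and Lhx6 (9.15), of which Six4 acts in muscle development. The lists differ in size and were not tested against each other. Of 10 fibroblast markers, 3 had a peak, against 1.79 from GC content and 17.1% of all protein-coding genes. These were Vim (18.8 tags per 10000000), Thy1 (15.2) and Fn1 (12.5). Peaks do not measure expression, so the cell type could not be checked by its markers, nor could the Hox genes that these MEFs express be named.

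**Figure D5:**
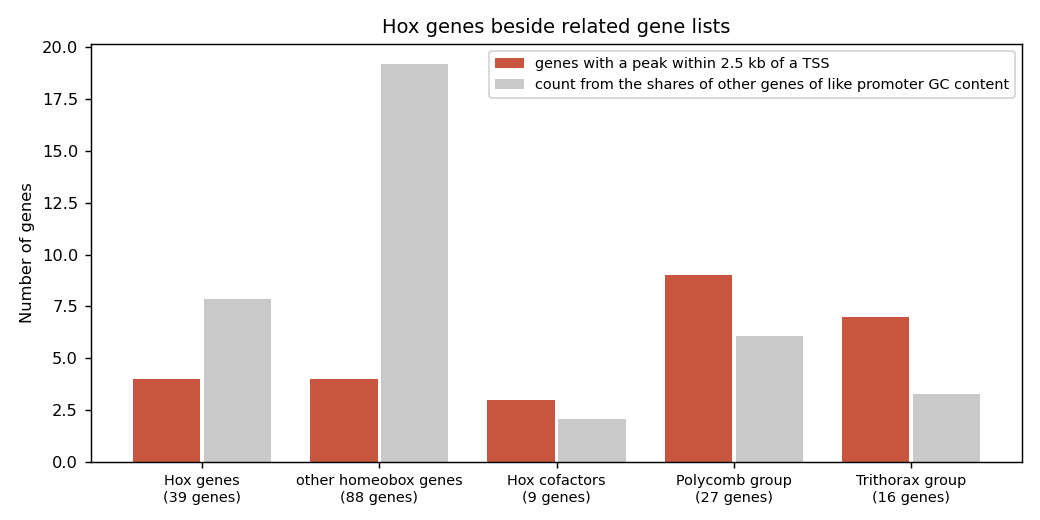
Number of genes with a proximal peak (red) beside the number that the shares of other genes of like promoter GC content would give (grey), for the Hox genes and 4 related lists. The red bar is the lower one for Hox genes (4 and 7.86) and other homeobox genes (4 and 19.2). It is the higher one for Hox cofactors (3 and 2.08), Polycomb genes (9 and 6.05) and Trithorax genes (7 and 3.26).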

How the data were processed

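Values come from the methylated Pontin peaks that the authors called under glucose starvation, on reads aligned to GRCm38 with Bowtie2, by HOMER 4.7.2. The deposited signal counts the tags in a peak per 10000000 tags. The score and both folds, which are ratios over input and over the surrounding 10 kb, are the authors' values, and each p-value is the authors' Poisson p-value. The authors required a false discovery rate of 0.001 (18 tags), 4-fold over input and surroundings and a p-value of 1.00e-04. Of 13480 putative regions the surroundings removed 5347 (39.7%) and the input 3822. The list holds 4311 peaks with 0.65% of 20765512 tags. In the list, 1 column of tags could not be assigned to a library and was not used.

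Distances, 1 kb GC content in bins of 5 percentage points, and sequences used GENCODE vM21 and RefSeq's GRCm38 genome. Every Hox gene with a peak, the closest neighbours and up to 4 genes a list, by signal, were named, except that results for certain genes are counted but not reported singly here, and Kmt2a was added after its value was seen. The members and lists were chosen with earlier results of these data known. No test was made, since 1 library has no replicate. Alternatives were other distance limits, TSS sets, folds, scores, spans and promoter properties. Distances, intervals (on whole counts only) and GC-based counts were tested on simulated data. Tools were Python 3.11.15, matplotlib 3.10.9, statsmodels 0.14.6, pandas 2.3.3, SciPy 1.17.1 and NumPy 2.4.6.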

Additional observations from a re-analysis of the deposited data

How the results depend on the processing

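No paired analysis was possible because a single library gave every peak. With peaks at least 8-fold over input, the number of Hox genes with a peak fell from 4 to 1 (Hoxb3), the peaks in the cluster spans from 5 to 1, and the count from GC content from 7.86 to 4.59. In the upper part by score that count was 4.63 and 3 Hox genes had a peak, without Hoxd8. Both limits leave fewer peaks, 2412 and 2271 of 4311. The other alternatives moved no value by over 1.5 times. Limits of 1 kb and 5 kb, the nearest edge and protein-coding transcripts gave the same 4 genes, and the gene start alone gave 3, without Hoxc4. The count from GC content was 6.93 with 300 bases at the start and 9.05 with CpG in place of GC content, both above the observed 4. The median signal at Hox genes stayed between 16.4 and 18.6 tags per 10000000. With about 19.5 to 46.5 tags in a Hox peak, counting error is large, and regions under the authors' limits could not be examined.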
